A study of Danio rerio with 6 samples.

Results

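The genes described here code for the machinery that brings proteins into mitochondria and shapes the inner membrane: the TOM and TIM translocases, the SAM complex, the MICOS complex and the CHCHD protein family. They were taken by name, as every gene whose Ensembl symbol begins with timm, tomm, chchd, samm50, pam16, immt, micos or apool and which had at least 10 counts in 3 pools. This gave 43 of the 25859 genes in the count files, and all 43 had at least 10 counts in each of the 6 pools, with 11 to 2918 counts per gene and pool. Their levels were compared between zebrafish larvae with a homozygous knockout of hspd1 (hspd1-/-) and larvae with both copies intact (hspd1+/+, the controls). Each group had 3 pools of 5 larval bodies at 5 days post fertilization. Both genotypes came from in-crosses of heterozygous carriers of a single knockout line, the tail tip was cut off for genotyping, and no treatment other than genotype was recorded. The labels name the tissue as embryo, and RNA came from the whole remaining body.

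Most mitochondrial proteins are made in the cytosol and pass the outer membrane through the TOM complex, in which TOMM20, TOMM22 and TOMM70 act as receptors and TOMM40 forms the pore. The TIM23 complex then passes proteins with a presequence into the matrix, drawn in by a motor built on the mitochondrial HSP70 (HSPA9), and the TIM22 complex, served by small TIM chaperones, inserts carrier proteins into the inner membrane. Inside the matrix, HSP60, the product of hspd1, folds a share of the imported proteins. MICOS holds the junctions where the cristae meet the inner boundary membrane. Many CHCHD proteins are small proteins with paired cysteine motifs that are oxidised and trapped in the intermembrane space by CHCHD4 (Mia40).

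All knockout pools had less hspd1 transcript than any control pool. hspd1 stood at 73.4, 67.9 and 82.3 CPM in knockout pools 1, 2 and 3, against 124, 133 and 132 CPM in control pools 1, 2 and 3. CPM are counts divided by the library total after scaling. All fold changes are knockout over control on the log2 scale, from edgeR's quasi-likelihood test with Benjamini-Hochberg adjustment over the 21602 genes tested, and a gene is said to rise or fall where its adjusted p was under 0.05. The log2 fold change of hspd1 was -0.79 (SE 0.11, adjusted p = 0.00162). Libraries held 18517874 to 20331675 counts. Markers of several cell types moved with genotype. All 7 hepatocyte markers tested and all 5 exocrine pancreas markers fell, with summed levels of 3383 to 5265 CPM in knockout pools against 9495 to 11675 CPM in controls for the hepatocyte list, and 943 to 1025 CPM in knockouts against 2564 to 4546 CPM in controls for the pancreas list. All 3 enterocyte markers fell as well, with sums of 714 to 1066 CPM in knockouts against 1763 to 2625 CPM in controls. Of 2 red cell markers 1 fell, with sums of 65.8 to 118 CPM in knockouts against 141 to 170 CPM in controls. The sums of 5 skeletal muscle markers overlapped, at 22299 to 26601 CPM in knockouts and 22042 to 35821 CPM in controls, and none of the 5 passed the test (0 also at an unadjusted p under 0.05 with edgeR). Of 6 heart markers 1 rose, with sums of 245 to 303 CPM in knockouts and 196 to 242 CPM in controls. At an unadjusted p under 0.05 with edgeR 3 of the 6 were higher and 0 lower, all of them entries named MYH6 or myh6. The 2 neuron markers found did not pass, with sums of 336 to 459 CPM in knockouts against 471 to 514 CPM in controls. In such whole-body RNA, fewer cells of a type and less RNA per cell cannot be told apart, and the part of these shifts in the results below was not tested.

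Most of the import and MICOS genes kept close to their control level. Of the 43 genes, 3 rose, CHCHD2, chchd4b and chchd6b, and none fell. That is 6.98% of the genes higher, beside a background of 1.47% of all genes tested called higher and 2.54% called lower (4.01% in all). The set was chosen with earlier results of these data known, so this share is a description and not a test. At an unadjusted p under 0.05 the same 3 genes and no others stood out, beside 15.6% of all genes tested. DESeq2 and limma-voom also called 3 higher and 0 lower. The knockout pools lay wholly above the controls for 6 of the 43 genes and wholly below for none, beside 21.4% of all genes tested without overlap (10.8% above and 10.6% below). The median log2 fold change was 0.06, beside -0.01 over all genes tested. The 40 genes that did not pass had log2 differences of -0.21 to 0.22, and their smallest adjusted p was 0.335. For 36 of these 40 the 95% interval of the difference lay inside a 1.5-fold change either way, and the other 4 were timm23b, TIMM17B, TIMM22 and TIMM10. Without knockout pool 1, and likewise without control pool 2, the count of genes that rose was 1, and leaving out any of the other pools gave 2. In the plot of fold changes by complex the estimates of the 3 genes lie above the rest. Their intervals overlap some of the others, such as 0.20 to 0.63 for chchd6b and -0.01 to 0.45 for IMMT.

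**Figure D1:**
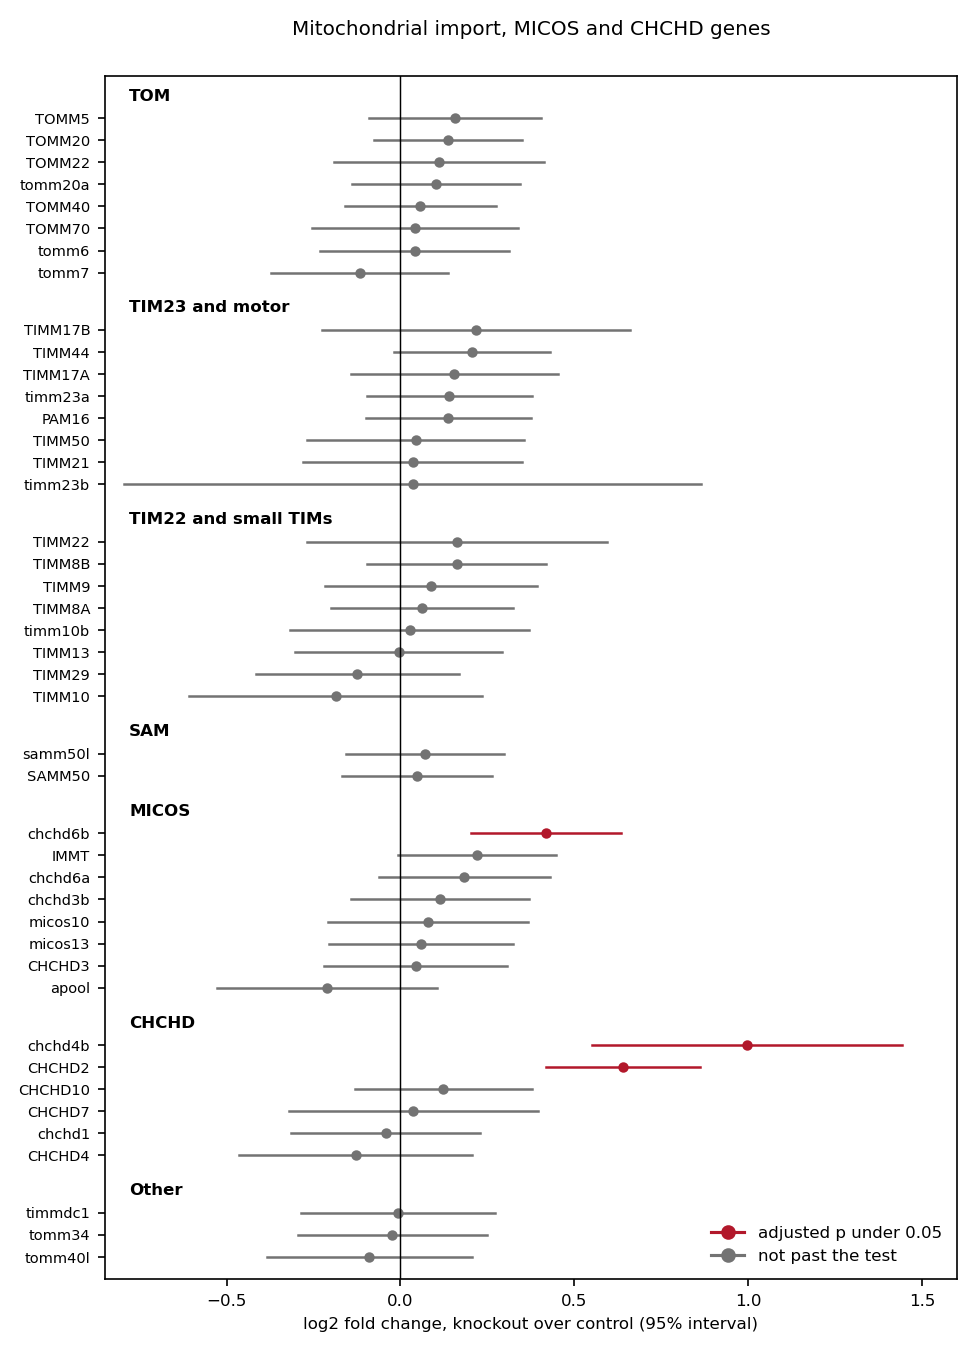
Log2 fold change, knockout over control, of each of the 43 genes (points) with its 95% interval (lines), grouped by complex. CHCHD2, chchd4b and chchd6b, in red, passed the test, and the other 40, in grey, lay between -0.21 and 0.22.

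Among the 6 CHCHD genes outside MICOS, 2 rose. CHCHD2 codes for a protein of the intermembrane space that in human cells also acts as a nuclear regulator of a cytochrome oxidase subunit gene. It had 46.0, 44.8 and 49.7 CPM in knockout pools 1, 2 and 3 and 31.6, 28.98 and 29.5 CPM in control pools 1, 2 and 3. Every knockout pool lay well above every control pool. CHCHD2 rose 1.56-fold, by a log2 fold change of 0.64 (SE 0.10, edgeR adjusted p = 0.00403), and it passed under every alternative setting and with each pool left out, at adjusted p of 2.74e-05 to 0.0261. Its close relative CHCHD10, which shares a complex with CHCHD2 in human cells, had 45.7, 46.1 and 47.7 CPM in the knockout pools and 36.5, 45.1 and 46.5 CPM in the controls. The CHCHD10 groups overlapped, and its log2 difference of 0.12 did not pass (95% interval -0.13 to 0.38).

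The second gene, chchd4b, is one of a pair of zebrafish genes named for CHCHD4, the oxidoreductase that imports cysteine-rich proteins into the intermembrane space. It was a low-count gene, with 133, 98 and 111 counts in knockout pools 1, 2 and 3 and 66, 40 and 64 counts in control pools 1, 2 and 3. On the scaled level this was 6.90, 5.12 and 5.83 CPM in the knockouts and 3.35, 2.18 and 3.39 CPM in the controls, with no overlap. chchd4b rose 1.99-fold (log2 fold change 0.996, SE 0.20, edgeR adjusted p = 0.0187). It did not pass without knockout pool 1 (adjusted p = 0.0621) or without control pool 2 (0.0625), and its adjusted p over all alternatives ran from 0.00206 to 0.0625. The other gene of the pair, CHCHD4, had 7.67, 7.003 and 7.83 CPM in the knockouts and 6.85, 8.13 and 9.64 CPM in the controls. Those groups overlapped, and the log2 difference of -0.13 (95% interval -0.46 to 0.21) did not pass.

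The test used on the balance within the CHCHD4 pair could not pass with 3 against 3 pools. CHCHD4 held 52.7%, 57.8% and 57.3% of the pair's summed CPM in the knockout pools and 67.2%, 78.8% and 74.0% in the controls, with no overlap. The summed level of the pair was 13.5 ± 1.24 CPM in the knockouts and 11.2 ± 1.599 CPM in the controls (mean ± SD, n = 3), and the sums overlapped. An exact two-sided permutation test on the log ratio of the pair gave p = 0.1, the smallest that 3 against 3 pools allow, and p = 0.45 adjusted over the 9 pairs compared. The pairs were chosen after their values were seen, and the share holds the chchd4b level already described. Reads of similar copies may have been split between them by the counting, so the level of each copy is less certain than the sum.

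**Figure D2:**
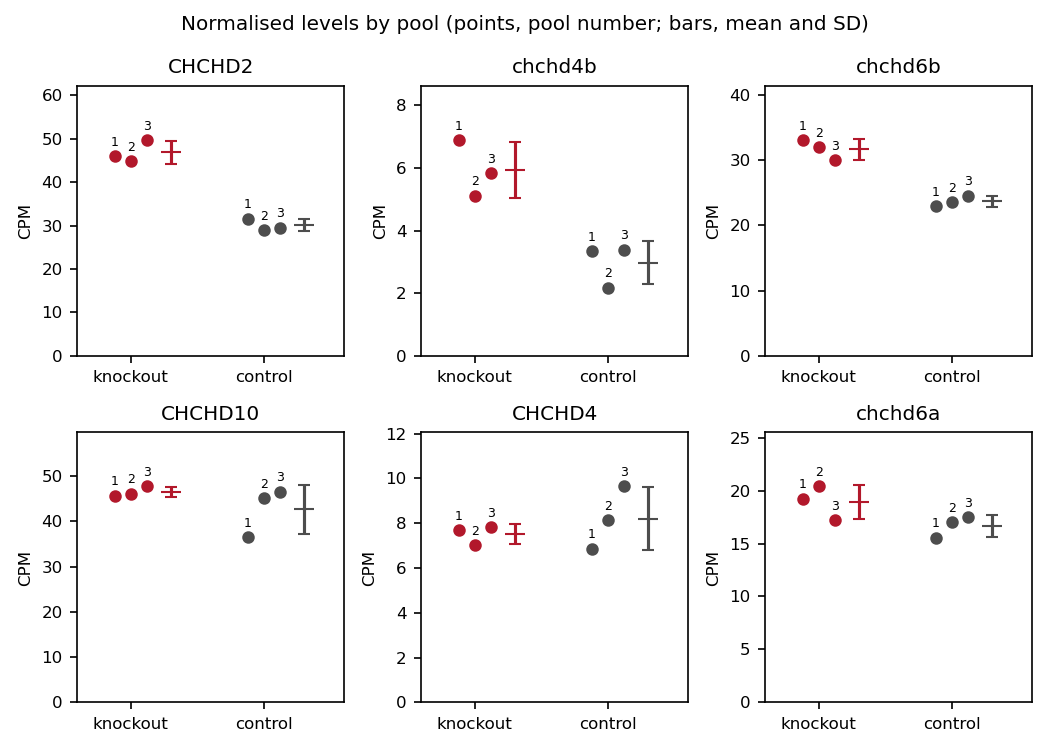
Normalised level (CPM, linear axis from 0) in each pool, numbered, with the mean and SD of 3 pools beside them, for the 3 genes that passed (top) and a relative of each (bottom). The knockout pools lie above all control pools for CHCHD2, chchd4b and chchd6b, and the groups overlap for CHCHD10, CHCHD4 and chchd6a.

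The other 2 genes of this family lay close to their control level. CHCHD7 had 6.95 to 8.50 CPM in the knockouts and 5.99 to 8.52 CPM in the controls, at a log2 difference of 0.04. chchd1, which in human mitochondria is a protein of the small ribosomal subunit, had 31.4 to 40.4 CPM in the knockouts and 32.5 to 38.2 CPM in the controls, at a log2 difference of -0.04. Both genes overlapped between the groups and did not pass.

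Of 8 MICOS genes, 1 rose. chchd6b, named for the MICOS subunit CHCHD6 (Mic25), had 33.1, 31.9 and 30.0 CPM in knockout pools 1, 2 and 3 and 22.9, 23.6 and 24.6 CPM in control pools 1, 2 and 3. The groups did not overlap and the pools lay close together within each. chchd6b rose 1.34-fold (log2 fold change 0.42, SE 0.10, edgeR adjusted p = 0.0390), close to the threshold. It did not pass when any 1 of the 6 pools was left out (adjusted p = 0.0593 to 0.148), nor with the replicate number as a block (adjusted p = 0.145). Its log2 fold change stayed between 0.39 and 0.47 in all alternatives. Its copy chchd6a had 19.2, 20.4 and 17.2 CPM in the knockouts and 15.5, 17.03 and 17.5 CPM in the controls, an overlap by knockout pool 3, and its log2 difference of 0.18 did not pass (95% interval -0.06 to 0.43). chchd6a held 36.8%, 39.0% and 36.5% of the summed CPM of this pair in the knockouts and 40.4%, 41.9% and 41.6% in the controls. The exact permutation test gave p = 0.1, and 0.45 adjusted over 9 pairs. With 3 against 3 pools 0.1 is the smallest p, so this test could not pass. The summed level of chchd6a and chchd6b did not overlap, at 50.6 ± 2.99 CPM in the knockouts and 40.4 ± 1.80 CPM in the controls. Share and sum both hold the chchd6b level already described. Among the 9 pairs, the sum of TOMM20 and tomm20a also did not overlap.

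IMMT (mitofilin or Mic60), the core subunit of MICOS, had 142, 152 and 149 CPM in knockout pools 1, 2 and 3 and 135, 129 and 117 CPM in control pools 1, 2 and 3. All 3 knockout pools lay above the controls, but the log2 difference of 0.22 (SE 0.10) missed the threshold (edgeR adjusted p = 0.335). The CHCHD3 genes, coding for the subunit Mic19, stood at log2 differences of 0.04 for CHCHD3 and 0.11 for chchd3b. The small subunit genes micos10 and micos13 stood at 0.08 and 0.06. The lowest of the set was apool (Mic27), with 12.7, 16.98 and 17.9 CPM in the knockouts and 20.2, 17.5 and 17.3 CPM in the controls. Knockout pool 1 was low and control pool 1 high for apool while the other 4 pools lay together, and the log2 difference of -0.21 (95% interval -0.53 to 0.10) did not pass.

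No gene of the TOM complex passed the test. The 8 genes had log2 differences of -0.12 to 0.16, and all 8 intervals lay inside a 1.5-fold change. The receptor gene TOMM20 had 110, 104 and 103 CPM in knockout pools 1, 2 and 3 and 97.8, 92.4 and 98.6 CPM in control pools 1, 2 and 3. It was the only TOM gene whose groups did not overlap, and its log2 difference of 0.14 did not pass (edgeR adjusted p = 0.542). The pore gene TOMM40 had 55.4 to 60.5 CPM in the knockouts and 53.2 to 57.9 CPM in the controls (log2 difference 0.06, 95% interval -0.16 to 0.27). Among the other receptor genes tomm20a, TOMM22 and TOMM70 stood at 0.10, 0.11 and 0.04. The small subunit genes TOMM5, tomm6 and tomm7 stood at 0.16, 0.04 and -0.12.

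The 8 genes of the TIM23 complex and its motor had log2 differences of 0.03 to 0.22, with none past the test. In the reported edgeR fit 0 were under an unadjusted p of 0.05, and 0 passed by DESeq2 or limma-voom. With upper-quartile scaling TIMM44 had an unadjusted edgeR p of 0.034 (adjusted 0.256). All 8 estimates were positive with each scaling, and 5 were without control pool 1. TIMM44, which tethers HSPA9 to the channel, had 27.9, 24.4 and 27.5 CPM in knockout pools 1, 2 and 3 and 23.1, 22.4 and 23.8 CPM in control pools 1, 2 and 3. The TIMM44 groups did not overlap, but the lowest knockout and highest control pool lay close, and the log2 difference of 0.21 did not pass (edgeR adjusted p = 0.370). TIMM17A, a channel subunit, had 45.3 to 56.4 CPM in the knockouts and 40.1 to 54.1 CPM in the controls, at a log2 difference of 0.15. timm23a, a channel gene, had 49.2 to 51.9 CPM in the knockouts and 41.7 to 50.9 CPM in the controls, at 0.14. PAM16, a regulator of the motor's J-protein, stood at 0.14, and TIMM50, the presequence receptor, and TIMM21 both stood at 0.04.

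The estimates of TIMM17B and timm23b were imprecise. TIMM17B had 2.52 to 3.24 CPM in the knockouts and 2.18 to 2.86 CPM in the controls (log2 difference 0.22, 95% interval -0.23 to 0.66). timm23b had 0.830, 1.41 and 1.05 CPM in the knockouts and 0.964, 0.6003 and 1.64 CPM in the controls, which covered the whole knockout range. Its interval, -0.79 to 0.86, was the widest of the 43, so these pools do not tell apart the differences inside it.

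Genes of the carrier pathway did not pass either. TIMM22, the channel of the carrier translocase, had 3.14 to 3.84 CPM in the knockouts and 2.49 to 3.66 CPM in the controls (log2 difference 0.16, 95% interval -0.27 to 0.59), and TIMM29, its partner in human cells, stood at -0.12. The small TIM chaperone genes TIMM8A, TIMM8B, TIMM9 and timm10b stood at 0.06, 0.16, 0.09 and 0.03. TIMM13, which with TIMM8A chaperones precursors across the intermembrane space, had 41.3 to 52.4 CPM in the knockouts and 39.2 to 51.1 CPM in the controls, and its estimate was -0.01 (0.05 with upper-quartile scaling). TIMM10 had 11.9, 9.83 and 13.9 CPM in the knockouts and 10.2, 13.4 and 16.9 CPM in the controls, at -0.19 (95% interval -0.61 to 0.23). In all 8 the groups overlapped.

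SAM inserts barrel proteins into the outer membrane, and its core subunit is coded by a pair of genes. SAMM50 had 33.0, 32.9 and 32.7 CPM in the knockouts and 29.7, 32.4 and 33.5 CPM in the controls, and samm50l had 31.5 to 36.5 CPM in the knockouts and 30.4 to 33.3 CPM in the controls. Their log2 differences of 0.05 and 0.07 did not pass, with intervals of -0.17 to 0.26 and -0.16 to 0.30. Outside these groups stand 3 genes that match by name, timmdc1 (an assembly factor of respiratory complex I), tomm34 (a cytosolic co-chaperone) and tomm40l. They lay at -0.01, -0.02 and -0.09 (0.04, 0.02 and -0.04 with upper-quartile scaling). tomm40l was compared with TOMM40 as a pair, but the grouping used here left it out of TOM.

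Across the whole set the genotypes overlapped in the median deviation but not in the summed level. The median deviation of the 43 genes from their control mean was 0.17, 0.00 and 0.08 (log2) in knockout pools 1, 2 and 3 and -0.12, 0.03 and 0.09 in control pools 1, 2 and 3. The same median over all genes tested lay within 0.01 of 0 in every pool. Control pool 1 was the lowest of all 6 pools for 25 of the 43 genes, and knockout pool 1 was the highest for 19. Of the 43 estimates 33 were positive, and 25 were positive without control pool 1. With upper-quartile scaling 37 were positive, and there the median log2 fold change over all genes tested was 0.043, beside -0.006 in the reported fit. Control pool 1 also had the largest sum of skeletal muscle markers, 35821 CPM against 22883 and 22042 CPM in control pools 2 and 3, and the part of this in the levels here was not tested. The summed level of the 43 genes was 1398, 1300.3 and 1351 CPM in the knockouts and 1176, 1274 and 1300.05 CPM in the controls, which separates the groups by less than 1 CPM. This sum holds the 3 genes that rose. CHCHD2, chchd4b and chchd6b had 44.8, 5.12 and 31.9 CPM in knockout pool 2 and 29.5, 3.39 and 24.6 CPM in control pool 3. Each of them differed there by more than the sums did, so the sum does not show a shift of the remaining genes. On the first principal component of the 43 genes, which held 42.5% of their variance and has an arbitrary sign, the knockouts lay at -1.10, -0.408 and -0.562 and the controls at 0.9996, 0.988 and 0.087, without overlap. These genes include the 3 that rose, and the part of those 3 in this component was not tested. The first component over all genes tested held 50.1% of the variance and also did not overlap. There the knockouts lay at -29.7, -30.8 and -31.2 and the controls at 25.7, 36.1 and 29.8. The summed MICOS level was 343, 342 and 344 CPM in the knockouts (SD 0.99) and 319, 313 and 293 CPM in the controls (SD 13.8). The sum lay close together in the knockouts only, but most of its single genes did not. micos10 and micos13 had SDs of 4.42 and 4.76 CPM in the knockouts and 1.18 and 2.35 CPM in the controls. Of the MICOS genes only IMMT and CHCHD3 had a smaller SD in the knockouts than in the controls. The MICOS sum covers the 8 MICOS genes taken by name. It leaves out the APOO genes, which stand in a partner list. The sum holds chchd6b, which rose, with means of 31.7 CPM in the knockouts and 23.7 CPM in the controls. It also holds IMMT, which did not pass, with means of 147.9 and 126.9 CPM.

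**Figure D3:**
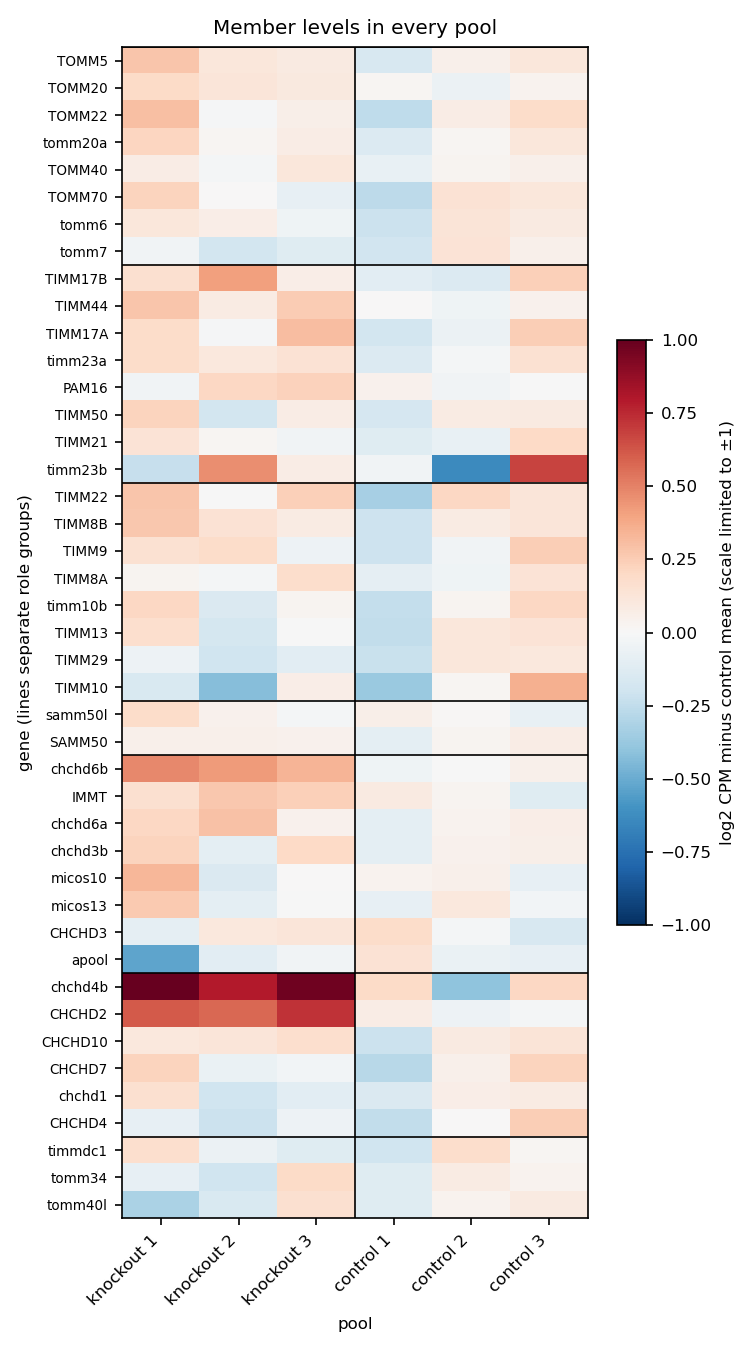
Log2 CPM of each gene in each pool minus its control mean, with colours limited to ±1 and black lines between complexes and genotypes. Rows chchd4b, CHCHD2 and chchd6b are red in all 3 knockout pools, and the column of control pool 1 is blue for most TOM and TIM genes.

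Genes that work with these complexes but carry other names were taken from 4 lists of partners. Of 46 such genes, 4 rose and none fell (0 lower by DESeq2 or limma-voom), or 8.70% beside the background of 1.47% called higher. At an unadjusted p under 0.05 with edgeR 14 of the 46 were higher and 0 lower, beside 6.79% of all genes tested higher and 8.81% lower. The knockout pools lay wholly above the controls for 16 of the 46, or 34.8%, and wholly below for 1, beside 10.8% above and 10.6% below over all genes tested. Their median log2 fold change was 0.14. The lists were chosen with earlier results of these data known, so these shares are a description and not a test. Among 14 genes of the import motor and its neighbours, the gene that rose was HSPA9, the mitochondrial HSP70 of the motor, with 356, 322 and 368 CPM in knockout pools 1, 2 and 3 and 178, 185 and 195 CPM in control pools 1, 2 and 3. The HSPA9 groups lay far apart, at a log2 fold change of 0.91 (SE 0.11, edgeR adjusted p = 5.61e-04). Its nucleotide exchange factor GRPEL1 had 41.3, 33.0 and 38.4 CPM in the knockouts and 23.2, 29.7 and 29.4 CPM in the controls, without overlap, but the log2 difference of 0.45 did not pass (adjusted p = 0.0967). The J-protein gene DNAJC15 and the SAM partner gene MTX2 also lay apart between groups at 0.33 and 0.32, short of the threshold (edgeR adjusted p = 0.134 and 0.137). Their relatives in the list lay lower. GRPEL2 and DNAJC19 stood at 0.17 and 0.11, and MTX1, mtx1a and MTX3 at -0.01, -0.17 and -0.01, with none past the test. GFER, the oxidase that recharges CHCHD4, stood at 0.45 (95% interval 0.08 to 0.82, adjusted p = 0.210), and AIFM1, which binds CHCHD4 in human cells, at -0.20 (adjusted p = 0.388).

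Of 8 peptidase genes that trim imported proteins, 1 rose. PMPCB, the catalytic subunit of the matrix processing peptidase, had 37.7, 54.7 and 45.8 CPM in the knockouts and 19.99, 24.7 and 22.3 CPM in the controls, a log2 fold change of 1.05 (SE 0.15, edgeR adjusted p = 0.00197). The other subunit gene PMPCA had 41.9 to 48.7 CPM in the knockouts and 39.3 to 45.4 CPM in the controls, at a log2 difference of 0.07, which missed the threshold (95% interval -0.17 to 0.31). Among 19 genes tied to MICOS, cristae or small cysteine-rich proteins, 2 rose. cox17, a copper chaperone that has the same cysteine motif as the CHCHD proteins, had 31.5, 29.9 and 30.9 CPM in the knockouts and 19.0, 21.3 and 19.9 CPM in the controls, a log2 fold change of 0.62 (SE 0.10, adjusted p = 0.00469). STOML2, an inner membrane scaffold, had 25.9, 25.3 and 25.5 CPM in the knockouts and 12.8, 17.2 and 17.6 CPM in the controls (log2 fold change 0.69, SE 0.13, edgeR adjusted p = 0.0129). The prohibitin gene PHB1, at a log2 difference of 0.41, missed the threshold (edgeR adjusted p = 0.0693) and was past it under DESeq2 (0.0178) and upper-quartile scaling (0.0454). The PHB2 genes stood at log2 differences of 0.002 and 0.26, and neither passed. The fusion gene OPA1 had 108 to 109.9 CPM in the knockouts and 104 to 107 CPM in the controls, at 0.04. Of 5 outer membrane genes none rose or fell (2 were higher at an unadjusted p under 0.05 with edgeR, and 0 passed with DESeq2 or limma-voom). VDAC1, VDAC2 and VDAC3, channels of the outer membrane, stood at log2 differences of 0.13, 0.30 and 0.24. MTCH2 and msto1 stood at -0.12 and -0.04.

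**Figure D4:**
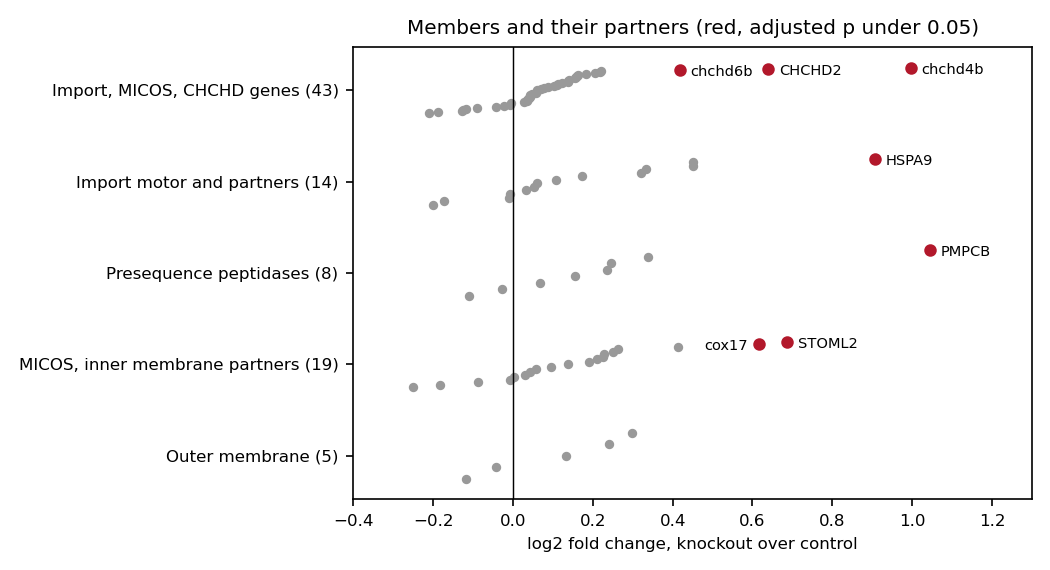
Log2 fold change, knockout over control, of each gene in the set of 43 and in 4 lists of partners, with the number of genes in brackets and genes past an adjusted p of 0.05 in red and named. The 7 red genes lie between 0.42 and 1.05, and the bulk of each list lies between -0.25 and 0.45.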

How the data were processed

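Per the labels' protocols, RNA of 6 pools of larvae was poly(A)-selected and sequenced without strand information (paired reads of 100 bases). The deposited values are estimated counts per Ensembl gene, stored as whole numbers, so rounding changed nothing. The submitters' processing notes name Salmon, DESeq2, FastQC and Trim Galore and the build GRCz11, and their versions and roles are not given in the sources used here. Symbols came from a table that named 23598 of 25859 genes and are printed as it spells them. Positions and sequences are not used here.

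Genes were filtered with filterByExpr (21602 kept), scaled by TMM and tested with edgeR 4.0.16 in R 4.3.3 (quasi-likelihood, genotype only). SE was taken as the size of the log2 fold change divided by the root of its F statistic, and 95% intervals use the matching t quantile. Alternatives were other scalings, filters and thresholds, DESeq2 1.42.0, limma-voom (limma 3.58.1), the replicate number as a block and each pool left out. Members and lists were chosen with earlier results of these data known, and the 9 pairs after their values were seen. By rule, genes past the test, those with adjusted p up to 0.15 and the highest CPM of each complex (not per length) were described. GFER, AIFM1, PMPCA, OPA1 and the outer membrane genes were chosen for description after their values were seen. So were the relatives GRPEL2, DNAJC19, MTX1, mtx1a, MTX3 and PHB2. Of the partner names written, mtch1 matched no gene, phb was matched as PHB1, and 11 of 39 cell marker names matched none. Pools are separate larvae, but which number marks which of the 3 mating sets is not stated.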

Additional observations from a re-analysis of the deposited data

How the results depend on the processing

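The count of 3 genes higher was 3 with either other scaling, either other filter, DESeq2 and limma-voom, 2 with the replicate block, 1 at an adjusted p of 0.01, and 1 to 2 with a pool left out. No gene of the 43 was called lower under any of these. A minimum of 10 counts in all 6 pools kept the same 43 genes, so the count of 3 could not change under it. Same-numbered pools did not deviate together (r = -0.20, 0.10 and -0.07), and whether the number marks a mating set is not stated. Between pools of unlike number r ran from -0.17 (knockout 3 with control 2) to 0.22 (knockout 3 with control 1). No pairing was used in the reported fit, and the block lost chchd6b among the 43 genes. The block joined same-numbered pools only, so any other matching of pools by mating set was not tested. Over all genes, calls higher and lower were 156 and 288 at an adjusted p of 0.01, 189 to 346 and 360 to 635 with a pool left out (317 and 549 in the reported fit), 404 and 710 with DESeq2, 415 and 476 with upper-quartile scaling, and 251 and 487 with the replicate block. The median of the 43 genes ran from 0.03 to 0.14, and the partner count from 3 to 5.

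Estimates changed sign under an alternative in 18 of the 40 genes not called, which stood at -0.19 (TIMM10) to 0.09 (TIMM9) in the reported fit, and none of the 18 was called. With upper-quartile scaling they were 0.024 for tomm34, 0.0090 for chchd1, 0.044 for timmdc1 and 0.046 for TIMM13, and with no filter 0.0029 for timmdc1 and 0.0044 for TIMM13. With a pool left out, ranges were -0.13 to 0.060 for tomm34, -0.16 to 0.036 for chchd1, -0.064 to 0.12 for TOMM70, -0.052 to 0.15 for TIMM50, -0.029 to 0.15 for CHCHD3, -0.23 to 0.0076 for CHCHD4, -0.22 to 0.013 for tomm40l, -0.00035 to 0.23 for TIMM9, -0.073 to 0.14 for timm10b, -0.098 to 0.093 for timmdc1, -0.11 to 0.081 for TIMM13, -0.079 to 0.16 for CHCHD7, -0.34 to 0.014 for TIMM10, -0.053 to 0.14 for micos13, -0.016 to 0.15 for TIMM21, -0.050 to 0.12 for tomm6, -0.23 to 0.48 for timm23b and -0.069 to 0.18 for micos10. Over all genes tested the median log2 fold change was -0.006 in the reported fit, 0.043 with upper-quartile scaling and 0.006 with no filter. The cause of the sign changes was not tested. timm23b, with 11 to 31 counts in a pool, had the largest SE of the 43 genes (0.37).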
